A study of Homo sapiens with 2 samples.

Results

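The genes of the phosphoprotein phosphatase subunits were examined for HNRNPC-bound regions in A549 cells, a human line grown from a non-small cell lung tumour. Members were the protein-coding genes whose symbol is PPP, a digit, and C for a catalytic or R for a regulatory subunit. They numbered 77 of 20037 protein-coding genes on chromosomes 1 to 22, X and Y, namely 11 catalytic and 66 regulatory genes. RNA immunoprecipitation sequencing gave 1 library from material pulled down with 5 µg of anti-HNRNPC antibody and 1 input library, both from A549, with no treatment or genotype named in the labels. Only the peak list of the immunoprecipitate (IP) was analysed here, 23111 peaks on these chromosomes, each a short region where IP reads exceeded the background of the peak caller. A gene had a peak when the summit of a peak lay in its span. Each group was a single library, so replicate spread is unknown and no difference below was tested. The gene group was selected on its symbols and on the measured peaks themselves, the fold of the highest PPP1CB peak among them, so all values are descriptions.

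Protein phosphatases of the PPP family remove phosphate from serine and threonine. A small set of catalytic subunits works with many regulatory subunits, which choose the substrate and the place in the cell. PP1 binds its regulators through short motifs, PP2A is built from a catalytic, a scaffold and a variable B subunit, and calcineurin is switched on by calcium through calmodulin and its own B subunit. PP4 and PP6 have regulators of their own, and PP5 carries its regulatory domain in the same chain. HNRNPC is an abundant nuclear protein that packages nascent transcripts and is known to bind runs of U. The regulatory symbols group genes by binding to the phosphatase, not by a shared fold or function.

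Peaks lay in 22 of the 77 subunit genes (28.6%, 95% exact binomial interval 18.8 to 40%), against 3685 of the 20037 protein-coding genes, a background of 18.4%. Among the catalytic genes 5 of 11 had a peak (45.5%, interval 16.7 to 76.6%), namely PPP1CB, PPP1CC, PPP3CA, PPP3CB and PPP6C. Of the regulatory genes 17 of 66 did (25.8%, interval 15.8 to 38%). The catalytic and regulatory intervals overlap widely, and both reach the background share. Such intervals cover counting error only, and the RNA level of each gene is not part of the list, so that little RNA and little binding cannot be told apart in a gene without a peak.

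In 10 subunit genes a peak reached into a window around an annotated start. Sequence there is shown for the 3 catalytic genes among them and, as examples of the regulatory genes, for PPP3R1, PPP1R12A and PPP4R3A. Each window, from RefSeq for GRCh38.p14, runs from 250 bases before to 50 bases after an annotated start, written 5′ to 3′ on the strand of the gene. Capitals mark the bases covered by a peak.
PPP1CB (chr2:28751580-28751879, plus strand): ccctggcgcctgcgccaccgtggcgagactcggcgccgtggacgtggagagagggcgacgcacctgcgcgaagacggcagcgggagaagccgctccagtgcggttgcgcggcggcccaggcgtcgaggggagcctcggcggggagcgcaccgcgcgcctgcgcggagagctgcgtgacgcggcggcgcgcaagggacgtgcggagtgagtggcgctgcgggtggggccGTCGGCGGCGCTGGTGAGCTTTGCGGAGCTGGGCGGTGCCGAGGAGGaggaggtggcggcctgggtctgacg
PPP1CC (chr12:110742842-110743141, minus strand): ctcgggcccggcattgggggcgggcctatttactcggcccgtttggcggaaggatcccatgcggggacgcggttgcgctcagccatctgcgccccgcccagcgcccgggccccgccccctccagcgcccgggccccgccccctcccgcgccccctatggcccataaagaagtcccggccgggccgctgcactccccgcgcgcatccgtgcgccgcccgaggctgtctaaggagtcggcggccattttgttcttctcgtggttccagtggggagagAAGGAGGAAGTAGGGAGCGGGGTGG
PPP6C (chr9:125189754-125190053, minus strand): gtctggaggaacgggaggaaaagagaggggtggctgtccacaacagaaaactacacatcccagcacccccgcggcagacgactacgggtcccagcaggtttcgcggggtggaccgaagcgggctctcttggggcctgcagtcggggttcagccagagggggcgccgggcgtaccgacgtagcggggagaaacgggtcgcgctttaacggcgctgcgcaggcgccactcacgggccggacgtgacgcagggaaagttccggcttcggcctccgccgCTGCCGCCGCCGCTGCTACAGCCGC
PPP3R1 (chr2:68252483-68252782, minus strand): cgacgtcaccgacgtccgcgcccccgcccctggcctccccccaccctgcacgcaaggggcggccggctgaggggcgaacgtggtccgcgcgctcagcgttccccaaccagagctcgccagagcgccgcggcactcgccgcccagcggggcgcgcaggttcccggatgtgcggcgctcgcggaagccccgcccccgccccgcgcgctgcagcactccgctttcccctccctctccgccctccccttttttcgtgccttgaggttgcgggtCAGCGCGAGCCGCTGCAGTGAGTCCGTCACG
PPP1R12A (chr12:79934902-79935201, minus strand): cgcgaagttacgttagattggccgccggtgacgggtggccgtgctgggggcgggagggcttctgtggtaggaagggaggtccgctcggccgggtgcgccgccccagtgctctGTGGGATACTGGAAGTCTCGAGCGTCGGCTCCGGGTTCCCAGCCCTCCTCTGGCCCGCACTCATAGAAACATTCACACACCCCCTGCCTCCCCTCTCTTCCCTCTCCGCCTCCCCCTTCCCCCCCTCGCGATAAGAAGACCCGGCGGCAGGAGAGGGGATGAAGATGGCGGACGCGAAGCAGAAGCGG
PPP4R3A (chr14:91510261-91510560, minus strand): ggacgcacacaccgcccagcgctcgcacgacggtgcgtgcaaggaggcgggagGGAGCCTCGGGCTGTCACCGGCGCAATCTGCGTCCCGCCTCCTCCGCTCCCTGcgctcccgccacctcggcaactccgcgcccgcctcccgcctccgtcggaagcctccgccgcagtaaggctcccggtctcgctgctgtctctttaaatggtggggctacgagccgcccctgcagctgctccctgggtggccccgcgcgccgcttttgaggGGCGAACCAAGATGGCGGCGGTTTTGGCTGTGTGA
A window was at hand for 61 of the 77 genes and for 19 of the 22 with a peak. In 10 of these 19 (52.6%) a peak overlapped a window, against 44.3% of all protein-coding genes with a peak and a window, so the share was near the background. The covered stretch was rich in G and C, as were the windows. It amounted to 47 bases with 74.5% G or C in PPP1CB and 25 bases with 64.0% in PPP1CC. In PPP6C it was 25 bases with 80.0%, and in PPP1R12A 188 bases with 64.9%. In the same order, the whole windows held 76.7, 72.3, 68.7 and 67%, so only in PPP6C was the covered part richer. The peaks that reached into the windows of PPP1CC, PPP6C, PPP3R1 and PPP1R12A were 236, 121, 348 and 374 bp wide. Their summits and remaining bases lay outside the printed windows and were not read. The same held for the PPP4R3A peak of 356 bp. No covered stretch in the printed windows held a run of 5 T, the DNA form of a U run. The motif TTTTT was present in 1 of the 12 overlapped windows (8.33%), that of PPP3R1, outside the covered bases. On the strand of the gene it occurred in 20.7% of the 22199 windows of protein-coding genes and in 16.4% of the 1565 windows overlapped by any peak. Counting both strands (TTTTT or AAAAA, which can share a window), the shares were 8.33%, 33.6% and 27.3% in the same order. The median content of G and C was 71.2% in the 12 windows, 62.3% in all windows and 66.0% in those overlapped by any peak. As 250 bases of each window lie before its annotated start, these shares describe the DNA of the windows and not the bound RNA. The 12 overlapped windows are also few. The absence of these letters says nothing on the unread parts of these peaks or on binding elsewhere in the RNA.

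PPP1CB, the beta catalytic subunit of PP1 and the form found in myosin phosphatase, held the highest peak of the group. The gene spans chromosome 2, 28751604 to 28802940 (51337 bp). Its 9 peaks had fold enrichments of 6.56, 9.87, 23.7, 9.97, 3.13, 4.67, 3.83, 3.97 and 3.27 from the 5′ to the 3′ end. A single peak thus stood far above the others of the same gene. It lay at 28776829 to 28777016, 188 bp wide and 25333 bp from the 5′ end, about the middle of the span, with a −log10 q of 44.8. By fold it ranked 8 of 23111 peaks, and by its best peak PPP1CB ranked 6 of the 3685 genes with a peak. The fold is a value of the authors' peak caller for each peak and serves here to rank peaks within the list.

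The number of IP reads at each summit and the level of the caller's control could be recovered from the fold and the p-value together. With a pseudocount of 1 and a Poisson tail, as MACS2 computes them, every one of the 23111 peaks was matched by a whole number of IP reads, each of which counted 0.535. The value 0.535 was itself fitted on a sample of these peaks so that reads came out whole. The match is therefore no independent check of the inferred values. The commonest control level, 0.103, is a background level with no control read over the summit and was found at 47.5% of all peaks. Whether the control was the input library is not given in the sources used here.

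At the highest PPP1CB peak 47 IP reads (95% exact Poisson interval 34.5 to 62.5) stood over a control level of 0.103. The next peak downstream, at 28778774 to 28779060, had 54 IP reads (40.6 to 70.5) over a control level of 2 and a fold of 9.97. From there to the 3′ end the gene had 39, 33, 41, 50 and 47 IP reads at its summits, over control levels of 6, 3, 5, 6 and 7. Of these summits and the one before, all but that with 33 reads lay inside the counting interval of the strongest summit. The control level was lower at the strongest summit than at any other of the gene. The 2 peaks near the 5′ end, 223 and 516 bp from it, had 15 and 35 IP reads.

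PPP1CC, the gamma catalytic subunit of PP1, was covered by IP reads to a like depth and had low folds. Its span is chromosome 12, 110708376 to 110742891. The 5 peaks had folds of 3.28, 3.63, 2.87, 3.20 and 3.92 from the 5′ end on, so its best fold ranked 3556 of 3685 genes. IP reads at these summits were 41, 32, 41, 40 and 42, and the control levels were 6, 4, 7, 6 and 5. All 5 control levels were above the median over all peaks, 0.141. Among the 9 PPP1CB peaks the median was 41 IP reads at a control level of 3. The part of sequence shared between these close paralogs in these counts was not tested. PPP1CA, the alpha subunit, had no peak in its short span of 3676 bp on chromosome 11.

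**Figure D1:**
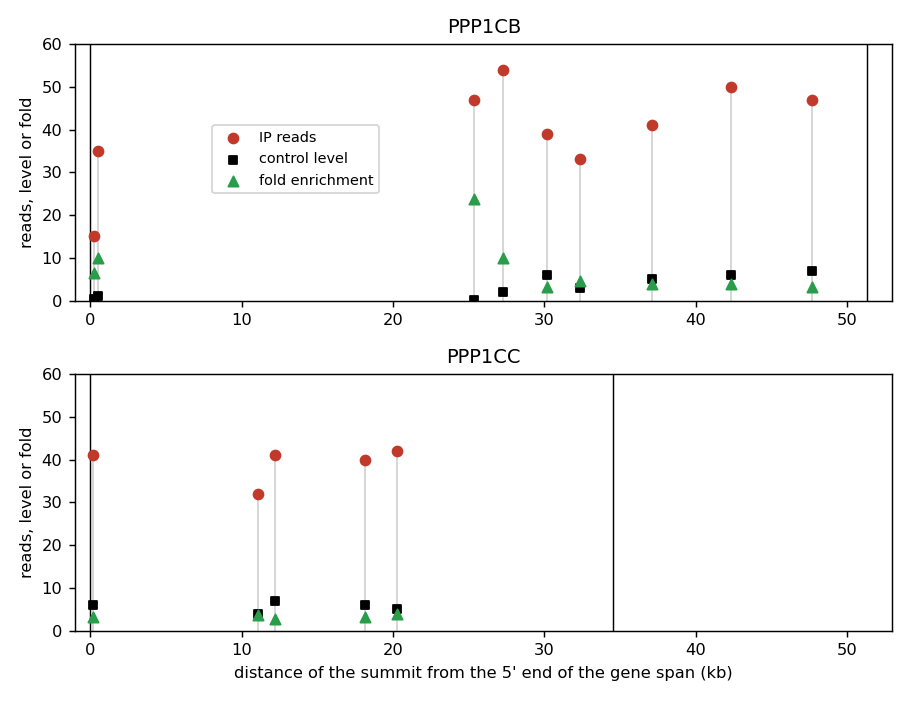
IP reads, control level and fold enrichment at each summit of PPP1CB (top, 9 peaks) and PPP1CC (bottom, 5 peaks), against the distance from the 5′ end in kb; black lines mark the ends of the gene span. The PPP1CB peak of fold 23.7 has 47 IP reads over a control level of 0.103, and the PPP1CC peaks have 32 to 42 IP reads over control levels of 4 to 7.

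Calcineurin A genes with a peak had median folds near that of all peaks, 5.76. By best fold, PPP3CA ranked 423 and PPP3CB 760 of the 3685 genes with a peak. PPP3CA, the alpha catalytic subunit, spans 324109 bp of chromosome 4 (101023418 to 101347526) and held 10 peaks with folds from 4.59 to 11.7 and a median of 6.26. The strongest, at 101040473 to 101040557, had 23 IP reads over a control level of 0.141. The next fold was 8.85, and a pair of peaks of 90 and 58 bp had 6.73. PPP3CB, the beta subunit on chromosome 10 (73436433 to 73496024), had 3 peaks with folds of 4.96, 5.85 and 9.92 within 8726 bp. The gamma subunit gene PPP3CC, which is mainly known from testis, had none, and its span of 100048 bp exceeds that of PPP3CB.

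PPP6C, the catalytic subunit of PP6 on chromosome 9 (125146573 to 125189803), had 3 peaks. From the 5′ end their folds were 4.62, 7.45 and 3.60, with 24, 14 and 25 IP reads over control levels of 2, 0.141 and 3. The order by fold was thus the reverse of that by reads. No peak lay in PPP2CA or PPP2CB, the catalytic subunits of PP2A, in PPP4C or in PPP5C. PPP2CA spans 31.7 kb and PPP5C 43.9 kb, lengths at which 19.8% and 27.9% of protein-coding genes of the same span class had a peak. PPP4C spans 9.38 kb, and in its class 3.74% did.

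**Figure D2:**
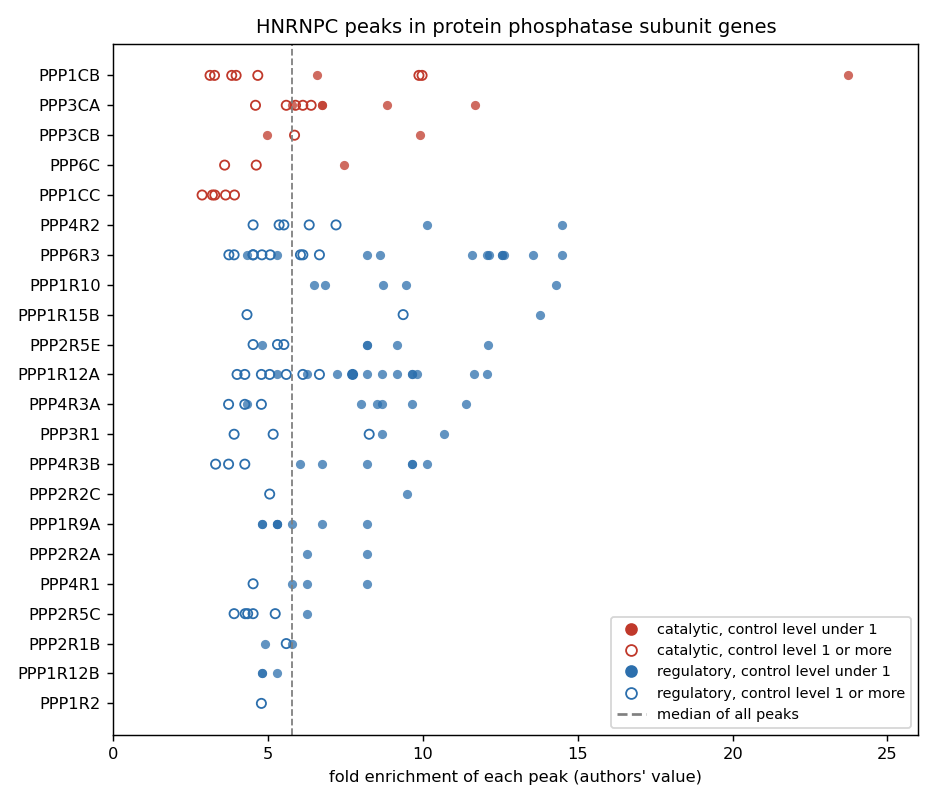
Fold enrichment of each peak in the 22 subunit genes with a peak, 5 catalytic genes above 17 regulatory genes, each ordered by best fold; open circles mark peaks with a control level of 1 or more, and the dashed line is the median of all peaks (5.76). The PPP1CB peak at 23.7 stands apart, and the next folds, in PPP4R2 and PPP6R3, are 14.5.

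Over all their peaks, the catalytic genes had a higher control level than the regulatory genes. In the catalytic genes 20 of 30 peaks (66.7%) had a control level of 1 or more, against 45 of 118 (38.1%) in the regulatory genes and 31.1% over protein-coding genes. Of the 20 catalytic peaks, 12 belonged to PPP1CB and PPP1CC. IP reads at the summit had a median of 24.5 in catalytic and 18 in regulatory genes, with 15 over all peaks. By gene the median was 41 in both PPP1CB and PPP1CC, and 18.5 in PPP3CA, 20 in PPP3CB and 24 in PPP6C. Summits with many reads, 30 or more, made up 13 of the 30 catalytic peaks (43.3%), all in PPP1CB and PPP1CC, 9 of the 118 regulatory peaks (7.63%) and 9.78% of all peaks. The median fold ran the other way, 5.67 in catalytic and 6.24 in regulatory genes, with 5.76 over all peaks. It was 4.67 in PPP1CB, 3.28 in PPP1CC, 6.26 in PPP3CA, 5.85 in PPP3CB and 4.62 in PPP6C. Peaks of 1 gene share its RNA and are not replicates.

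**Figure D3:**
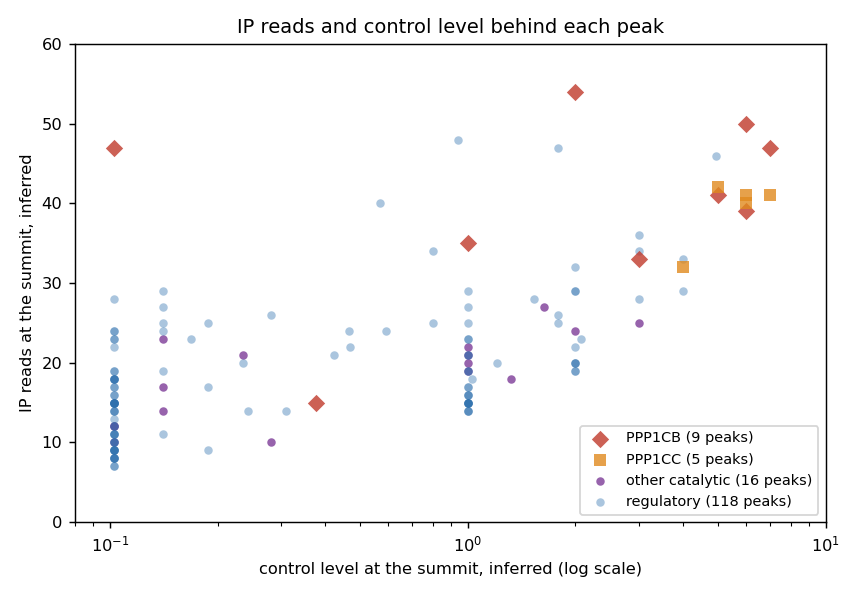
IP reads at the summit against the control level (log axis) for the 148 peaks in subunit genes, with PPP1CB, PPP1CC, the other catalytic genes and the regulatory genes marked apart. Most PPP1CB and all PPP1CC peaks lie at the upper right, while the highest PPP1CB peak lies at 47 reads on the left edge.

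Among the regulatory genes, those of PP4 held 7.74 peaks per 100 kb of span, those of PP6 7.01, calcineurin 6.49, PP1 2.14 and PP2A 1.2, against 1.72 over all protein-coding genes. The PP6 value rests on the 21 peaks of PPP6R3 alone, and that of calcineurin on the 5 peaks of PPP3R1 alone. Of 6 PP4 regulatory genes 4 had a peak (66.7%, interval 22.3 to 95.7%), against 18.4% of protein-coding genes, and the shares of their span classes summed to 1.72 genes. PPP4R2, a core subunit of the PP4 complex that acts in the response to DNA damage, spans chromosome 3, 72996743 to 73069198. It had 7 peaks with folds of 10.1, 4.52, 7.19, 14.5, 6.33, 5.51 and 5.36 from the 5′ end on. The strongest, at 73059029 to 73059146, had 28 IP reads over a control level of 0.103. The summit nearest the 5′ end also lay in an uncharacterised lncRNA gene. PPP4R3A and PPP4R3B, paralogs that can each complete that complex, had 9 peaks each. In PPP4R3A (chromosome 14, 91457508 to 91510554) folds ran from 3.72 to 11.4, and the best peak, at 91470833 to 91470935, had 23 IP reads. In PPP4R3B (chromosome 2, 55547292 to 55617622) they ran from 3.31 to 10.1, with the best at 55581554 to 55581688 and 19 IP reads. The ranges of fold of these paralogs overlapped over most of their extent. PPP4R3C, a gene of 3135 bp on chromosome X, had none. PPP4R1 had 4 peaks with a best fold of 8.19, and PPP4R4 had none in 105413 bp.

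PPP6R3, a SAPS-domain subunit of PP6, had 21 peaks and its 2 paralogs had none. The gene spans chromosome 11, 68460752 to 68615334. Folds ran from 3.73 to 14.5 with a median of 6.66, and 8 of the 21 reached 10 or more. The best peak, at 68596114 to 68596196, had 29 IP reads over a control level of 0.141, and the most reads at any summit were 36. All summits lay in the last 110130 bp of the gene, at a median spacing of 3454 bp, and the stretch upstream of them was without a peak. Its paralogs are PPP6R1 (30.8 kb, chromosome 19) and PPP6R2 (114 kb, chromosome 22), and 40.4% of genes in the span class of PPP6R2 had a peak.

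The myosin phosphatase targeting subunit PPP1R12A had the most peaks of all members, 22, over chromosome 12, 79773563 to 79935460. PPP1R12A (also MYPT1) brings PPP1CB to myosin. Its folds ran from 3.998 to 12.1 with a median of 7.70, and at 12 of the 22 summits the control level was the background of 0.103. The strongest peak, at 79786357 to 79786471, had 23 IP reads. Summits lay 732 bp from the 5′ end and then from 62567 bp onward, with a gap of 61835 bp between. The summit 2275 bp from the 3′ end also lay in the antisense gene PPP1R12A-AS2, and as the list gives no strand, the RNA it came from cannot be told. PPP1R12B had 3 peaks of folds 5.27, 4.79 and 4.79 within 863 bp of its span of 244 kb, each with 9 or fewer IP reads. PPP1R12C, PPP1R16A and PPP1R16B had none.

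**Figure D4:**
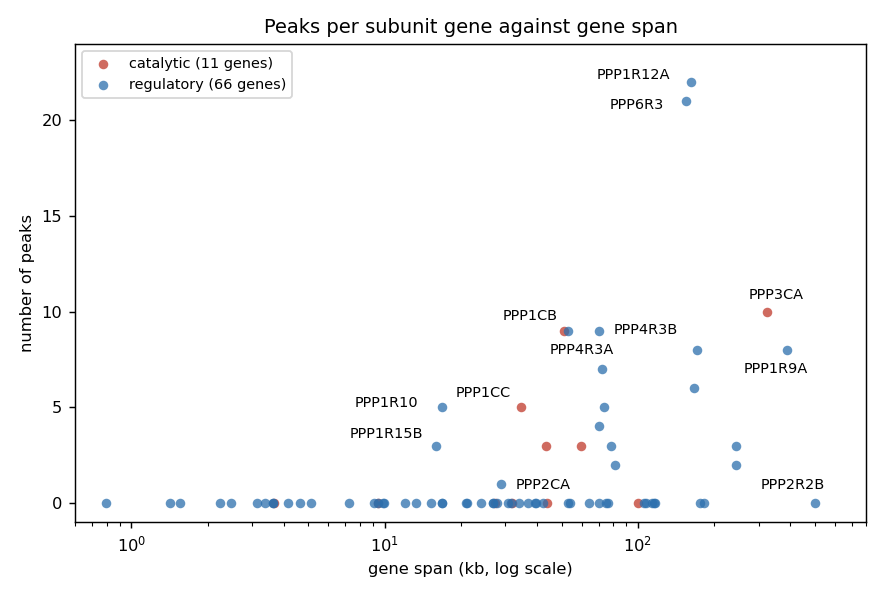
Number of peaks against gene span (kb, log axis) for all 77 subunit genes, 11 catalytic and 66 regulatory. PPP1R12A with 22 and PPP6R3 with 21 peaks stand above the rest, and PPP1R10 and PPP1R15B have 5 and 3 peaks in the shortest spans that hold any.

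PPP1R10 and PPP1R15B combined short spans with wide peaks. PPP1R10 (also PNUTS) holds PP1 at chromatin and acts at the end of transcription. In its 16831 bp on chromosome 6 (30600413 to 30617243) it had 5 peaks with folds of 14.3, 8.70, 6.49, 6.83 and 9.45 from the 5′ end on. The peak of highest fold, 1609 bp wide at 30615386 to 30616994, had 40 IP reads over a control level of 0.569, and together the peaks covered 20.1% of the span. PPP1R15B (also CReP) targets PP1 to the translation factor eIF2α under basal conditions. Its span of 15992 bp on chromosome 1 (204395826 to 204411817) held 3 peaks of folds 13.8, 9.36 and 4.32 and widths of 2322, 1123 and 224 bp, which covered 22.9%. The widest lay at 204409477 to 204411798, next to the 5′ end, with 48 IP reads over a control level of 0.940. PPP1R15A, its stress-induced paralog of 3638 bp, had no peak. Peaks of 1000 bp or more occurred in 3 of the 22 members with a peak (13.6%), PPP1R10, PPP1R15B and PPP1R9A, against 11.9% of all genes with a peak.

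Of the 41 PP1 regulatory genes 6 had a peak (14.6%), near the background of 18.4%. PPP1R9A, the actin-binding scaffold neurabin, had 8 peaks over 389180 bp of chromosome 7 (94907236 to 95296415). Its best fold, 8.19 with 15 IP reads, belonged to the peak of 1329 bp at 94910142 to 94911470. Of the remaining 7 peaks 3 lay in the antisense gene PPP1R9A-AS1. PPP1R9B, its paralog spinophilin, had none. Of the 9 PP1 inhibitor genes 1 had a peak (11.1%), where the shares of their span classes summed to 1.18 genes. It was PPP1R2 (inhibitor-2), with a peak 60 bp wide, a fold of 4.78, 16 IP reads and a −log10 q of 2.76. PPP1R2 has processed copies elsewhere in the genome, and whether they bear on the reads of this peak was not tested. Pseudogenes are also annotated for other members with a peak, such as PPP4R2 and PPP6C, where the same was not tested. The 7 glycogen-targeting genes PPP1R3A to PPP1R3G had none, which allows a share of up to 42.9%, and their median span was 7.21 kb. The shares of their span classes summed to 0.66 genes. No peak lay in PPP1R7 and PPP1R8, nuclear partners of PP1, or in the ASPP genes PPP1R13B and PPP1R13L. The other PP1 regulatory genes without a peak were PPP1R1A, PPP1R1B, PPP1R1C, PPP1R2B, PPP1R2C, PPP1R11, PPP1R14A, PPP1R14B, PPP1R14C, PPP1R14D, PPP1R17, PPP1R18, PPP1R21, PPP1R26, PPP1R27, PPP1R35, PPP1R36, PPP1R37 and PPP1R42.

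PP2A had peaks in 5 of its 14 regulatory genes (35.7%), against the background of 18.4%, and in neither catalytic gene. These 14 genes are long, with a median span of 77.4 kb, and the shares of their span classes, summed, came to 4.19 genes, near the 5 found. The B56 subunits, which direct PP2A to short linear motifs of its substrates, had peaks in PPP2R5E and PPP2R5C. PPP2R5E on chromosome 14 (63371364 to 63543377) held 8 with a best fold of 12.1, at 63542779 to 63543349, where 25 IP reads stood over a control level of 0.188. This summit also lay in an uncharacterised lncRNA gene at the 5′ end. PPP2R5C had 6 peaks with folds of at most 6.24, of which 3 also lay in uncharacterised lncRNA genes. PPP2R5A, PPP2R5B and PPP2R5D had none. Of the B55 subunits PPP2R2C, a form known from brain, had 2 peaks on chromosome 4, the better at 6347871 to 6347980 with a fold of 9.48 and 20 IP reads. PPP2R2A, the alpha form, had 2 with a best fold of 8.19, both at most 2185 bp from one end of its span. PPP2R2B, the longest member at 501 kb, and PPP2R2D had none. Of the 2 scaffold genes PPP2R1B had 3 peaks of folds 5.59, 4.90 and 5.76 from the 5′ end on, that of 5.76 within SIK2 as well, and PPP2R1A had none. No peak lay in PPP2R3A, PPP2R3B or PPP2R3C.

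PPP3R1, the calcium-binding B subunit of calcineurin, had 5 peaks, and its testis form PPP3R2, a gene of 3366 bp, had none. PPP3R1 spans chromosome 2, 68178857 to 68252532. From the 5′ end on its folds were 10.7, 3.90, 8.67, 8.26 and 5.16. The strongest peak, at 68252166 to 68252513, lay 158 bp from the 5′ end with 34 IP reads over a control level of 0.799, and its summit also lay in the antisense gene PPP3R1-AS1. The remaining 4 lay in the last 9712 bp.

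Subunit genes with a peak were longer than those without, as were protein-coding genes in general. The median span was 73.1 kb in the 22 members with a peak and 26.7 kb in the 55 without, against 64.9 kb and 18.2 kb in all protein-coding genes. Of 26 members under 20 kb 2 had a peak (7.69%), PPP1R10 and PPP1R15B, against a background of 5.05%. In the 51 members of 20 kb or more 20 did (39.2%), against 29.3%. At that length the catalytic share was 5 of 9 (55.6%, interval 21.2 to 86.3%) and the regulatory share 15 of 42 (35.7%, interval 21.6 to 52%). When protein-coding genes were put in 10 classes by span, the class shares with a peak, summed over members, came to 2.55 catalytic and 13.7 regulatory genes, where 5 and 17 were found. The sums take no account of expression. All 8 members on chromosome 19, among them PPP5C, PPP2R1A and PPP6R1, were without a peak, on a chromosome where 6.2% of genes had one. None of 8 allows a share of up to 37.5%.

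Among members with a peak, 11 of 22 (50%) had a best fold of 10 or more, 2 catalytic and 9 regulatory, against 20.5% of protein-coding genes with a peak. At the level of 9 or more peaks stood 6 members (27.3%), against 25%. For 10 or more peaks it was 3 members (13.6%), PPP1R12A, PPP6R3 and PPP3CA, against 21.2%, and for 20 or more it was 2 (9.09%), against 4.61%. As the group was chosen with its highest peak known, no more is read from these shares. The summits closest to a span border lay 59 bp inside PPP2R1B, 86 bp inside PPP4R3A and 132 bp inside PPP6C. Outside, the summits nearest to a member without a peak were 2778 bp from PPP1R13L, 3105 bp from PPP2R3A and 4205 bp from PPP1R3D. The lowest −log10 q of a member's peak was 2.01, next to the limit of the list.

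The strand, known for 19 of the 22 genes, allowed the ends to be told apart. A summit lay within 1000 bp of the 5′ end in 12 of the 19 (63.2%, interval 38.4 to 83.7%), against 51.7% of protein-coding genes with a peak and a strand. These were PPP1CB, PPP1CC, PPP6C, PPP1R10, PPP1R12A, PPP1R15B, PPP2R1B, PPP2R5E, PPP3R1, PPP4R2, PPP4R3A and PPP4R3B. None of the 19 had a summit within 1000 bp of the 3′ end, and 1.82% of the 3075 protein-coding genes with a peak and a strand did. In PPP3CA and PPP2R2A, whose strand was not at hand, a summit lay 482 and 279 bp from an end of the span that could not be named. Within 5000 bp of the 3′ end, 6 of the 19 members (31.6%) and 28.2% of other protein-coding genes had a summit, and these made up 7 of the 133 summits in members (5.26%) and 9.28% of those in other genes. The interval for the share of members, 12.6 to 56.6%, included that of other genes, and the summit share rests on 7 summits. No direction is read from these values. Divided into 5 equal parts from the 5′ end, the spans of the members held 18.0, 8.27, 20.3, 21.8 and 31.6% of summits. In other genes these parts held 19.7, 13.9, 18.4, 22.4 and 25.7%, so that the part after the first was lowest and the last highest in both. The interval for summits near the 5′ end included the background share.

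**Figure D5:**
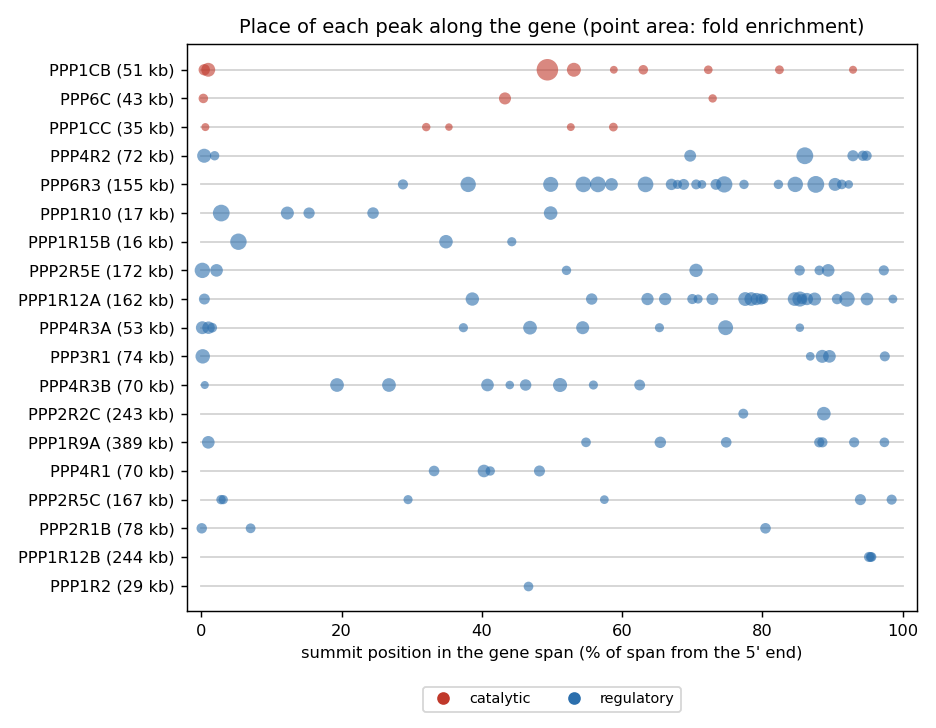
Position of each summit along the 19 subunit genes with a known strand, as percent of the span from the 5′ end; point area grows with fold enrichment and catalytic genes are on top. Of the 19 genes, 12 have a summit within 1000 bp of the 5′ end and none of the 19 within 1000 bp of the 3′ end.

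Genes related to these phosphatases by function, though not by symbol, had peaks in 24 of 58 cases (41.4%, interval 28.6 to 55.1%), against the background of 18.4%, with a median span of 45.8 kb against 24.1 kb. The class shares by span, summed over these 58 genes, came to 14.7. Of 16 partners of PP2A 6 had one. STRN3, a striatin of the STRIPAK complex, had 13 peaks with a best fold of 12.6, STRN 15 with 8.19, SLMAP 12 with 7.70, and ARPP19, an inhibitor of PP2A-B55 in mitosis, 6 with 9.97. CIP2A (7.22) and SET (5.59), PP2A inhibitors, had 2 each. Of 14 partners of PP1 8 had one, led by RRP1B, a nucleolar protein, with 16 peaks and a best fold of 11.6, and PHACTR2 with 18 and 9.64. CDCA2 (also Repo-Man), which brings PP1 to anaphase chromatin, had 6 with a best fold of 8.67. The other PP1 partners had best folds of 8.81 in GPATCH2, 8.75 in WDR82, 7.22 in PHACTR4, 6.73 in MKI67 and 5.76 in KNL1. Among 9 calcineurin partners RCAN3 (8.81) and NFATC3 (7.70) had peaks. In the metal-dependent phosphatases, an unrelated fold with the same activity, 8 of 17 had a peak, with best folds of 8.67 in PPTC7, 7.70 in PPM1H, 7.19 in PPM1B, 6.72 in PPM1A, 6.45 in PPM1D, 5.76 in PPM1F and PDP1 and 5.52 in PDP2. PPEF1 and PPEF2 had none. None of these related genes reached the fold of 14.5 seen in PPP4R2 and PPP6R3.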

How the data were processed

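HNRNPC RIP-seq in A549 cells gave 1 IP and 1 input library, a group each per the labels. Peaks of the IP were used. Per the submitters' processing notes the tools were HISAT2, MACS2 and bedtools on hg38; their roles, versions and settings are not given in the sources used here. In the deposited file the fold (a ratio to the caller's background), the −log10 p and the −log10 q are given per peak, and the deposited score equals 10 times the −log10 q, cut to a whole number, at each of 23148 peaks. Of these, 37 peaks on other contigs were left out. Gene spans, and strands where a promoter window was given, came from RefSeq for GRCh38.p14, positions are 1-based, and exons were not resolved. A summit inside several spans counted for each gene. IP reads and control levels were inferred from fold and p, which they returned within 0.01 of the −log10 p at every peak, a procedure tested on simulated data. The simulated peaks were drawn with the same assumed formula, so that test checked the arithmetic and not the formula. The depth of the libraries is unknown. Intervals are 95% exact (Clopper-Pearson or Poisson), and a count of 0 allows 3 counts. The members and the gene lists were chosen with earlier results of these data known. Text names all catalytic genes, all regulatory genes with a peak, in full the 10 of highest fold and the 5 with most peaks, and list members with a peak by fold. As alternatives, peaks were kept at q up to 0.001, at fold 4 and above or at control level 1 and above, a gene was given a peak by overlap in place of the summit, and peaks in several genes were counted for none. The software was pandas 2.3.3, numpy 2.4.6, matplotlib 3.10.9 and scipy 1.17.1 under Python 3.11.15.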

Additional observations from a re-analysis of the deposited data

How the results depend on the processing

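The numbers of catalytic and regulatory genes with a peak stayed within 1.5 times of 5 and 17 under each alternative: 4 to 5 catalytic and 13 to 17 regulatory genes. The shares moved unevenly: with a control level of 1 or more 23.4% of subunit genes and 9.84% of protein-coding genes had a peak, in place of 28.6% and 18.4%, while under the other settings they were 27.3 to 28.6% and 16.7 to 18.4%. With a q of 0.001 or less PPP1R2 lost its only peak, and with a fold of 4 or more PPP1CC lost all of its peaks. The fold limit left 5 of the 9 PPP1CB peaks. When only peaks with a control level of 1 or more were kept, 65 of the 148 peaks in subunit genes and 7 of the 9 in PPP1CB remained, and the highest fold in PPP1CB was 9.97 in place of 23.7, because the highest peak is left out by construction. Distances of 500 and 2000 bp to the 5′ end, chosen after seeing the data, gave 10 and 12 genes in place of 12. No paired analysis was possible because each group had 1 library, and no replicate could be left out. Low read numbers limit single peaks: the summits in subunit genes rest on 7 to 54 IP reads.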

Other observations

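The reference also holds 52 noncoding genes with a symbol that starts like those of the subunits. Of 31 pseudogenes and 2 transcribed pseudogenes none had a peak summit in its span, and of 19 lncRNA genes 3 did. The shares over all pseudogenes and all lncRNA genes were not computed, so these counts have no background beside them. Many of the pseudogenes are short, and of protein-coding genes with spans up to 3.07 kb only 2.05% had a peak. No result on the noncoding genes is read from the counts. PPP1R12A-AS2 had 3 peaks with a best fold of 9.67, of which 1 also lay in PPP1R12A. PPP1R9A-AS1 had 3 with a best fold of 6.73, all in PPP1R9A as well, and PPP3R1-AS1 had 1, the peak of fold 10.7 at the 5′ end of PPP3R1. Without strand in the list, the RNA behind the shared peaks cannot be told.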
